A study of Caenorhabditis elegans with 2 samples.

Results

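Chromatin immunoprecipitation followed by sequencing (ChIP-seq) of the transcription factor SKN-1 gave peaks at genes of 3 small RNA classes, namely transfer RNAs (tRNA), small nucleolar RNAs (snoRNA) and small nuclear RNAs (snRNA). A peak was taken when its summit lay within 200 bp of a gene annotated to one of these classes, so position alone chose it and no measured value did. Of the 30000 lines in the pooled peak list, 666 (2.22%) met this rule, and the nearest gene was a tRNA gene for 439, a snoRNA gene for 167 and an snRNA gene for 60. The annotation held 1109 such genes, of which 22 were mitochondrial tRNA genes with no pooled summit. Below, these 666 are called small RNA summits.

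The animals were whole Caenorhabditis elegans at the L3 larval stage, mixed in sex, of strain OP342, whose genotype is given as unc-119(ed3) III; wgIs342. The immunoprecipitated protein was eGFP-skn-1, made from the integrated wgIs342 insertion, and the antibody label reads skn-1. There was 1 group with 2 biological replicates, all animals carried the same alleles and insertion, and no list from animals without the fusion was used here. The data were read as peak lists, with a signal value per peak on the authors' own scale.

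The pooled and replicate lists mix peaks with background, while a shorter list of 1778 lines holds what passed the irreproducible discovery rate (IDR), a measure of how well ranks repeat between replicates. These 1778 were the pooled lines of highest signal value, from 26.9 upwards, so membership of the IDR-thresholded list and a high pooled rank are the same statement. The replicate 1 list had 22350 lines and the replicate 2 list 30000. The lists do not hold read depth, which is therefore unknown. Intervals on shares are Wilson 95% intervals, which cover counting error only, and lines of 1 list are not replicates, so shares are compared as descriptions with no test.

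By way of background, tRNA genes are transcribed by RNA polymerase III from sequences inside the gene, the A box and the B box, which the factor TFIIIC recognises. Genes for spliceosomal snRNAs and for the spliced leader RNAs SL1 and SL2 carry instead a proximal sequence element upstream of the start, which the SNAP complex binds. SL2 RNA is the donor of the leader that is spliced onto the downstream messages of C. elegans operons. The snoRNAs guide chemical modification of ribosomal and other RNAs, and in C. elegans many lie in introns of protein-coding genes while others stand between genes.

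The sequences below, read from the WBcel235 (ce11) genome, are shown as examples of the genes and letters that the results turn on. All had a summit in the IDR-thresholded list, but they are not simply the highest of their sets, since genes of 1 chromosome were left out of the printing. In the SL2 RNA genes, each printed from 80 bases upstream of the annotated 5′ end to 15 bases inside the gene, the capitals mark GTCNG, which began 47 bases upstream in all 4. The first is II:5844785-5844879 on the plus strand, the second II:5543518-5543612 on the plus strand, the third III:12250385-12250479 on the plus strand and the last II:5544259-5544353 on the minus strand.
sls-2.1: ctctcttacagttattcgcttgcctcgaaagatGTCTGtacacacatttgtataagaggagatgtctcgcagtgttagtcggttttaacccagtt
sls-2.2: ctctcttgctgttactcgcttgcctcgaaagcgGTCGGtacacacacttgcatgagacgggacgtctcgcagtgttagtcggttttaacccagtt
sls-2.8: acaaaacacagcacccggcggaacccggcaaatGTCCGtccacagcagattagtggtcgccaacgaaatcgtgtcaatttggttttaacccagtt
sls-2.3: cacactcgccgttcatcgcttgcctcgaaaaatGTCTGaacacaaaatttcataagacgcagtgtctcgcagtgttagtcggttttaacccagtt

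An element of 2 parts, AACCCG followed after 5 bases of any kind by TGTC, was noticed upstream of other snRNA and snoRNA genes and is printed in capitals, again from 80 bases upstream to 15 bases inside. It also stands in sls-2.8 above, where its second part overlaps GTCNG. Y53F4B.47 is II:15025879-15025973 on the minus strand, sup-6 is II:12944953-12945047 on the minus strand, ZK994.7 is V:8500499-8500593 on the plus strand and F01D5.12 is II:14018427-14018521 on the minus strand.
Y53F4B.47: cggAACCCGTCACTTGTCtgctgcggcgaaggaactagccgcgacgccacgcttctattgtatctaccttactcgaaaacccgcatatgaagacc
sup-6: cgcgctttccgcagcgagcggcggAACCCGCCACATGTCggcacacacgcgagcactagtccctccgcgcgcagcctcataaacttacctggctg
ZK994.7: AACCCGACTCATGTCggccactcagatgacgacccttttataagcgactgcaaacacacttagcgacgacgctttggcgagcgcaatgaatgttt
F01D5.12: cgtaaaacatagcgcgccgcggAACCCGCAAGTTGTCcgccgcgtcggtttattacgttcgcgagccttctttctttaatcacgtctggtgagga

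Another set of snoRNA genes had the B box letters GTTCNANNC, which tRNA genes carry inside, just upstream of the annotated 5′ end. These are printed from 90 bases upstream to 15 bases inside, with the B box match in capitals. Y75B12B.12 is V:15191079-15191183 on the minus strand, F30H5.4 is III:502714-502818 on the plus strand, T03F7.8 is V:11314168-11314272 on the plus strand and F32E10.10 is IV:7574032-7574136 on the plus strand.
Y75B12B.12: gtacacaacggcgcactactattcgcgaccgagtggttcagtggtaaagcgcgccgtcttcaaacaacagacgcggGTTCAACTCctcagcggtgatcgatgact
F30H5.4: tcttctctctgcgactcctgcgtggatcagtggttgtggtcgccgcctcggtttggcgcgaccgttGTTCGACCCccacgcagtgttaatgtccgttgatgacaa
T03F7.8: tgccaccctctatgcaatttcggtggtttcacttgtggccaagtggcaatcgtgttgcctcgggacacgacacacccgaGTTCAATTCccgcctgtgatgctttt
F32E10.10: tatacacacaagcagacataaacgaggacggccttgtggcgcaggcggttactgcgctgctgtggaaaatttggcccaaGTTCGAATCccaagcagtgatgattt

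For comparison, 3 tRNA genes with high summits are printed whole, from 60 bases upstream of the 5′ end to 20 bases past the 3′ end, with the internal B box in capitals. F41D9.t3 (asparagine) is X:8404439-8404591, R04A9.t1 (glutamine) is X:410331-410482 and M02F4.t1 (glycine) is X:3036104-3036255, all on the plus strand.
F41D9.t3: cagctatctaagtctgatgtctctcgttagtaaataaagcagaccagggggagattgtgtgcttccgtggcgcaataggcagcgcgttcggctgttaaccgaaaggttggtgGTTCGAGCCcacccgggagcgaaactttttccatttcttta
R04A9.t1: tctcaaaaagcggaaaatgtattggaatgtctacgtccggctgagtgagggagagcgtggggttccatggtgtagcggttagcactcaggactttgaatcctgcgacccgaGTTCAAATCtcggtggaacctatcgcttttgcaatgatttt
M02F4.t1: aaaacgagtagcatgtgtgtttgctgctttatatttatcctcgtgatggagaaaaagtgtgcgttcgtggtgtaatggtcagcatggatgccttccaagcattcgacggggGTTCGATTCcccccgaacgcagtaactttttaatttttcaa

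Small RNA summits stood high in the pooled list. Of the 666, 159 were in the IDR-thresholded list (23.9%, interval 20.8 to 27.3), against 5.93% of all pooled lines and 5.52% of the lines that were not small RNA summits. By class, 62 of 167 snoRNA summits (37.1%), 14 of 60 snRNA summits (23.3%) and 83 of 439 tRNA summits (18.9%) were in it. Together they made up 8.94% of the IDR-thresholded list. The median signal value over all small RNA summits was 14.7, and over the other pooled lines it was 7.22.

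The share of small RNA summits was largest in the upper ranks but not at the very top. Among pooled ranks 1 to 100 there were 3 small RNA summits, all at snRNA genes, and the highest stood at rank 60. Their share of lines was 9.0% for ranks 101 to 500, 9.4% for ranks 501 to 1000 and 9.38% for ranks 1001 to 1778. Below the IDR limit it went down from 6.79% in ranks 1779 to 3000 to 0.75% in ranks 20001 to 30000. Within the IDR-thresholded list the median signal value was 36.6 for small RNA summits and 37.8 for the other lines, whose highest value was 1289 against 110.9.

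**Figure D1:**
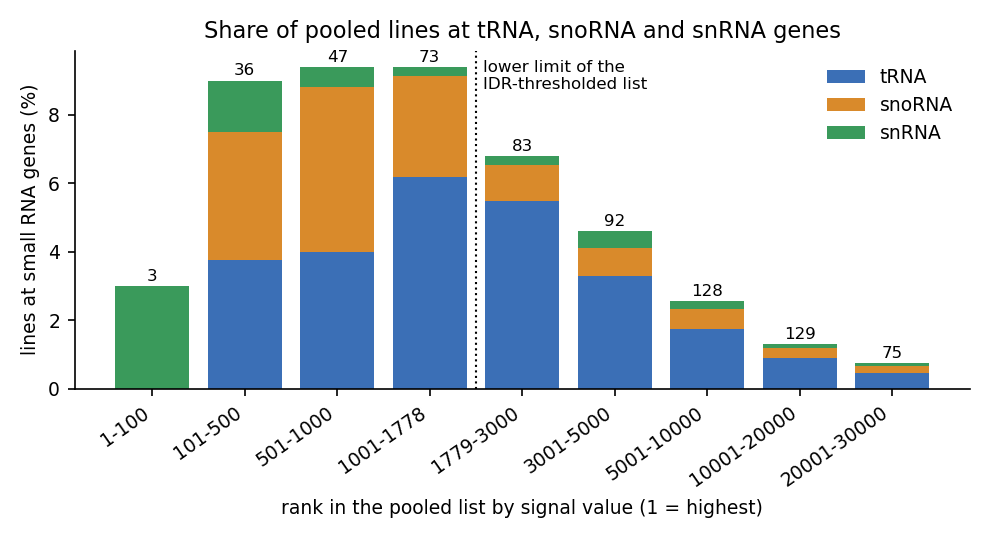
Share of pooled lines that were small RNA summits (y axis, %) by pooled rank of the signal value (x axis, 1 is the highest), coloured by the class of the nearest gene; the number of summits is printed on each bar. The share is 3.0% in the top 100 lines, between 9.0% and 9.4% down to the lower limit of the IDR-thresholded list (dotted line), and 0.75% in the last bar.

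The difference was present both inside and outside the promoters of protein-coding genes. A promoter window ran from 1000 bp upstream to 200 bp downstream of an annotated 5′ end of a coding transcript. Outside every such window, 97 of 467 small RNA summits were in the IDR-thresholded list (20.8%, interval 17.3 to 24.7), against 3.18% of all pooled lines outside the windows. Inside the windows the figures were 62 of 199 (31.2%) and 10.7%. Of the small RNA summits in the IDR-thresholded list, 39.0% lay inside a coding promoter window, compared with 68.5% of the other lines of that list.

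Other noncoding classes gave lower shares by the same distance rule. Of the pooled summits near piRNA genes, 25 of 687 were in the IDR-thresholded list (3.64%), and near microRNA genes 4 of 57 (7.02%). Near long intergenic RNA genes it was 15 of 147 (10.2%), near pseudogenes 9 of 437 (2.06%) and near genes annotated as ncRNA 273 of 2017 (13.5%). These sets include summits that are also small RNA summits. Without those, the ncRNA share was 183 of 1676 (10.9%) and the long intergenic RNA share 13 of 144 (9.03%). The shares for piRNA genes (3.57%), microRNA genes (7.27%) and pseudogenes (1.62%) changed little. Summits within 200 bp of a coding 5′ end that were not small RNA summits had 567 of 4832 in it (11.7%). The interval of this last share (10.9 to 12.7) lay below that of the tRNA summits (15.5 to 22.8), the lowest of the 3 classes, while those of the long intergenic RNA genes (6.28 to 16.2) and microRNA genes (2.76 to 16.7) overlapped it.

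**Figure D2:**
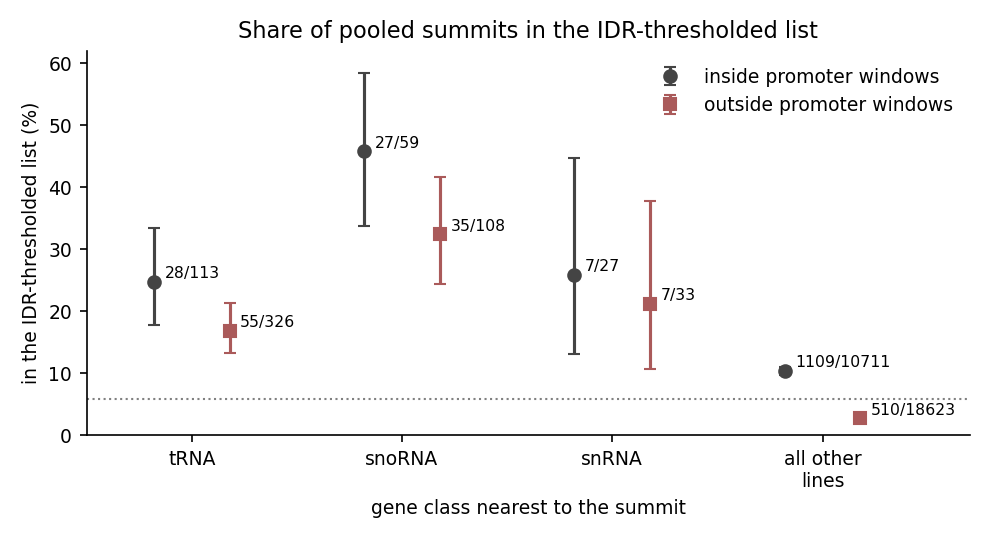
Share of pooled summits that were in the IDR-thresholded list (y axis, %) by the class of the nearest small RNA gene or for all other lines (x axis), inside (circles) and outside (squares) coding promoter windows, with Wilson 95% intervals and the counts beside each point. The dotted line is the share of all pooled lines, 5.93%, and each of the 6 small RNA points lies above it, with the snoRNA points at 45.8% and 32.4%.

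The SL2 RNA genes held the highest small RNA summits. Of 18 annotated SL2 genes, 16 had a pooled summit and 7 a summit in the IDR-thresholded list (38.9%, interval 20.3 to 61.4). Of all 129 nuclear snRNA genes, which include the SL2 and SL1 genes, 9.3% had one. Of the 89 snRNA genes outside the spliced leader and smy families, 5.62% did. Repeated sequence limits these snRNA comparisons. Among 32-base stretches in the gene and 50 bases to either side, a median of 86.8% occurred once in the genome for SL2 genes. For all snRNA genes the median was 55.4%. An identical copy existed for 44 of the 129 snRNA genes and for none of the SL2 genes. Among coding genes 7.76% had an IDR-thresholded promoter summit, counted over the wider promoter window and not within 200 bp. The summit of sls-2.1 had a signal value of 110.9 in the pooled list, 25.5 in replicate 1 and 85.9 in replicate 2. For the higher of 2 sls-2.2 summits the values were 94.4, 34.7 and 63.3, with this summit 40 bases upstream of the 5′ end. For sls-2.8 they were 69.7, 24.6 and 48.7. These 3 genes were thus among the 148 highest lines of replicate 1 and the 218 highest of replicate 2.

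The gene sls-2.4 had 2 summits in the IDR-thresholded list, at 97.9 and 58.8, placed 28 bases upstream and 184 bases downstream of its 5′ end. The upstream summit had no replicate 1 summit within 100 bp, while the other stood at rank 48 there, the highest replicate 1 rank of any line that met the rule. The second sls-2.2 summit was also in the IDR-thresholded list, at 55.4. It lay 168 bases downstream of the 5′ end and had no replicate 1 summit within 100 bp. The remaining SL2 genes in the list were sls-2.3 at 40.6, sls-2.16 at 33.5 and sls-2.7 at 32.3. All 7 genes were also within 200 bp of a summit among the 1778 highest lines of each replicate, so this group of genes repeated in both. The next, sls-2.9, stood just below the limit at 26.7, its summit being shared with the lysine tRNA gene M01E5.t1. At the other end, sls-2.12 and sls-2.15 had no pooled summit. In sls-2.12 and its 50-base flanks 38.0% of 32-base stretches were unique, the lowest share of the SL2 genes. Absence of binding and absence of placed reads therefore cannot be told apart there. The gene sls-2.15, at 97.8%, had a replicate 2 summit with a signal value of 5.46.

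Within the SL2 family the genes differed in their upstream letters. GTCNG lay 40 to 60 bases upstream of 16 of the 18, and of 65.9% of all snRNA genes, 13.6% of snoRNA genes, 6.21% of tRNA genes and 2.92% of coding 5′ ends. The full 2-part element was found upstream of 9 SL2 genes, beginning 59 bases upstream in each. Of those 9, 2 had a summit in the IDR-thresholded list, and of the 9 without it 5 did. The intervals, 6.32% to 54.7% and 26.7% to 81.1%, overlapped widely.

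The SL1 RNA genes gave no summits at all, and their repeated sequence limits what this shows. None of the 12 annotated sls-1 genes had a pooled summit (0 of 12, interval up to 24.2%). All 12 had an identical copy elsewhere in the genome, and no stretch of 32 bases in these genes or the 50 bases to either side occurred only once. No source used here says how reads with several matches were treated, so absence of binding and absence of placed reads cannot be told apart. No SL2 gene had an identical copy.

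Beyond the spliced leaders and the smy family, 5 of 89 other snRNA genes had an IDR-thresholded summit (5.62%), and 30 of 89 had a pooled one. They were C52E4.8 at 64.5, sup-6 at 51.5, M163.13 at 49.3, W05B2.8 at 41.2 and F38E11.10 at 39.1. The C52E4.8 summit also lay in the promoter window of snr-4, which codes for an Sm protein of the spliceosomal snRNPs, so it cannot be assigned to either gene. The same holds for the other summits inside coding promoter windows. Among the summits named in the text these are, of the snRNA genes, those of sls-2.1 (H41C03.3), sls-2.4 (egg-5), sls-2.7 (W06D4.3), sls-2.8 (Y75B8A.23 and tim-1) and F38E11.10 (F38E11.9), with the coding gene in brackets. Of the 12 highest snoRNA summits 6 lay in such a window, among them Y53F4B.47 (cmtr-1), T02E1.9 (T02E1.2) and F09G2.14 (F09G2.2 and attf-2), and of the 12 highest tRNA summits 5, among them R04A9.t1 (ZK1193.2). The replicates disagreed on the last 2 of the 5 snRNA genes. W05B2.8, which has 14 identical copies counting itself, stood at rank 76 in replicate 1 (30.5) and rank 6818 in replicate 2 (9.02). F38E11.10 stood at rank 8301 (4.15) and rank 518 (35.6). The smy family, annotated as 10 snRNA and 2 snoRNA genes, had 4 of 12 genes with a pooled summit and 0 of 12 in the IDR-thresholded list.

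The snoRNA genes had the largest share of IDR-thresholded summits, and their summits lay upstream. At the gene level, 62 of 346 snoRNA genes (17.9%) had an IDR-thresholded summit, and 156 had a pooled one. The highest was Y53F4B.47, with signal values of 70.4 in the pooled list, 14.1 in replicate 1 and 59.2 in replicate 2. T02E1.9 followed with 69.2, 21.1 and 49.4, and F09G2.14 with 68.7, 13.4 and 51.7. The next were ZK484.9 at 66.7, F59C6.15 at 63.7, Y38F2AR.14 at 60.4, Y75B12B.12 at 55.4, Y55F3BR.9 at 55.1, M7.15 at 54.8, C51F7.4 at 54.8, T04A8.17 at 53.9 and ZK643.9 at 53.2. Of these 12, all but M7.15 were matched within 100 bp in each replicate list, and M7.15 had no match in replicate 1.

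The snoRNA genes with either set of upstream letters carried a high summit more often than the others. The B box letters lay within 100 bases upstream of 35 of 346 snoRNA genes, with a median start 14 bases before the annotated 5′ end, and 17 of those 35 had an IDR-thresholded summit (48.6%, interval 33.0 to 64.4). None of the 35 windows touched an annotated tRNA gene. The 2-part element lay upstream of 24 snoRNA genes, with a median start 60 bases before the 5′ end, and 10 of them had such a summit (41.7%, interval 24.5 to 61.2). No gene had both, and of the 287 with neither, 35 had an IDR-thresholded summit (12.2%, interval 8.9 to 16.5). Among coding 5′ ends, 2.56% had the B box letters in the same window and 0.0269% the 2-part element, so the letters of the second are rare there. These letters were chosen after the sequences under the highest summits had been seen, so the counts describe these genes only.

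The replicates bore unequally on the 2 sets. With the 1778 highest lines of each replicate in place of the IDR-thresholded list, the B box set had 18 of 35 genes in replicate 1 and 14 of 35 in replicate 2, with 13 in both. The set with the 2-part element had 4 of 24 in replicate 1 and 10 of 24 in replicate 2, with 3 in both. The genes with neither had 38, 34 and 26 of 287. The B box set thus had a larger share than the genes with neither in each replicate. For the 2-part set the difference was large in replicate 2 alone. Its replicate 1 interval (6.68% to 35.9%) overlapped that of genes with neither. The letters were chosen after the highest summits had been seen, and the pooled list derives from both replicates. The replicate counts are therefore no independent repeat of the difference.

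**Figure D3:**
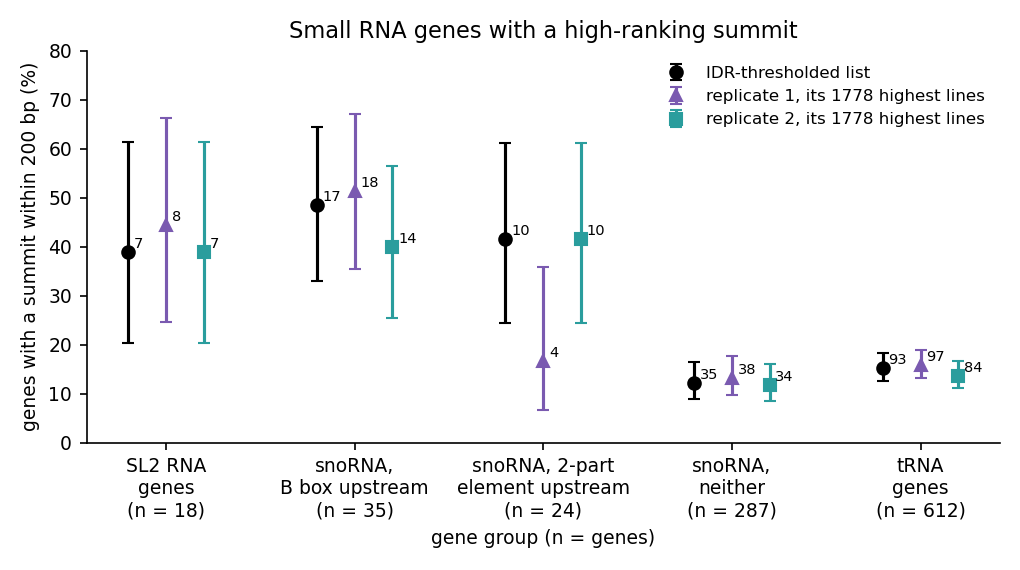
Share of genes with a summit within 200 bp (y axis, %) for 5 groups of small RNA genes (x axis), in the IDR-thresholded list (circles), the 1778 highest lines of replicate 1 (triangles) and those of replicate 2 (squares), with Wilson 95% intervals and the number of genes beside each point. The SL2 genes and the snoRNA genes with an upstream B box lie at 38.9% or above in each list. The snoRNA genes with neither element lie at 13.2% or below, and those with the 2-part element fall to 16.7% in replicate 1. The letters that define the snoRNA groups were chosen after the highest summits had been seen.

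The snoRNA genes with and without these letters were also counted by where they lay. Between genes, 14 of 29 snoRNA genes with either element and 16 of 101 with neither had an IDR-thresholded summit. Inside an intron of a host gene on the same strand, the figures were 10 of 19 and 12 of 124. Inside an intron of a gene on the opposite strand they were 3 of 10 and 4 of 17, and of 40 snoRNA genes that overlapped an exon on the same strand 2 had a summit. Thus the genes with an element were at 48.3% between genes, 52.6% in same-strand introns and 30.0% in opposite-strand introns. Those without were at 15.8%, 9.68% and 23.5%. In opposite-strand introns the intervals, 10.8% to 60.3% with an element and 9.56% to 47.3% without, were too wide to tell whether the shares differed. The 2 sets of letters were counted together here.

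The host genes of these summits were counted next. Of the 62 snoRNA summits in the IDR-thresholded list, 32 had a nearest snoRNA gene inside a coding gene and 30 did not. The host lay on the same strand for 24 and on the opposite strand for 8. For 8 of the 32 the summit lay in the host's own promoter window, and 4 hosts had another IDR-thresholded summit in their promoter, namely Y38F2AR.12, fars-1, madf-11 and din-1, where 7.76% of all coding genes had a promoter summit in that list. Only for din-1 did both hold. No host was a ribosomal protein gene. The snoRNA genes annotated inside such genes were not counted as a set, so this cannot be read as a difference from other hosts. For tRNA summits, 35 lay at a gene inside a coding gene and 48 did not, and for snRNA summits 3 and 11. These counts depend on how many genes of each class lie inside coding genes. Between genes, 30 of 130 snoRNA, 56 of 322 tRNA and 9 of 66 snRNA genes had an IDR-thresholded summit. In same-strand introns it was 22 of 143, 21 of 161 and 2 of 35, and in opposite-strand introns 7 of 27, 15 of 122 and 1 of 20. Within each class the intervals of these shares overlapped.

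The tRNA genes were the largest class by number, and within the IDR-thresholded list their median signal value, 34.6, was below the 37.3 of snoRNA and the 53.4 of snRNA summits. Of 612 nuclear tRNA genes, 443 had a pooled summit and 93 an IDR-thresholded one (15.2%, interval 12.6 to 18.3). The highest was the asparagine tRNA gene F41D9.t3, in an intron of sulp-3 on the opposite strand, with signal values of 88.2 in the pooled list, 22.3 in replicate 1 and 65.1 in replicate 2. The glutamine tRNA gene R04A9.t1 had 86.8, 18.3 and 68.6, its summit lying 157 bases upstream. The summit at M02F4.t1 and M02F4.t2, a neighbouring pair of tRNA genes, had 81.3, 26.8 and 47.6.

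The next tRNA summits by signal value were C53C7.t1 (serine) at 68.8, C04E7.t1 (leucine), which stood at pooled rank 271, C28G1.t1 (glutamic acid) at 59.4, W09D6.t2 (proline) at 59.1, C33G3.t2 (lysine) at 58.1, F47G6.t1 (arginine) at 57.9, Y54G2A.t3 (aspartic acid) at 57.4, C18A11.t2 (arginine) at 57.0 and K07A1.t1 (serine) at 56.3. Of the 12 highest, all except Y54G2A.t3 and C18A11.t2 had a replicate 1 summit within 100 bp, and all 12 had one in replicate 2. The 12 thus covered 10 amino acids and were not copies of 1 gene.

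No amino acid class stood alone. Among classes with 20 or more genes, the share with an IDR-thresholded summit ran from 5.0% for methionine (1 of 20) and 6.9% for isoleucine (2 of 29) to 20.5% for serine (8 of 39) and 25.6% for leucine (10 of 39). The intervals of the lowest and highest overlapped, at 0.888% to 23.6% and 14.6% to 41.1%. The only gene annotated for selenocysteine tRNA, K11H12.t1, had a summit at 34.8 in the pooled list, 6.26 in replicate 1 and 28.0 in replicate 2. The tryptophan tRNA genes sup-5 and sup-7, known from amber suppressor alleles, had summits at 33.1 and 31.2. These last 3 genes were named after their values were seen.

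By chromosome, 48 of 276 tRNA genes on X had an IDR-thresholded summit (17.4%, interval 13.4 to 22.3), and 45 of 336 on the autosomes did (13.4%, interval 10.2 to 17.4). The intervals overlapped. Chromosome V was lowest, with 5 of 78 (6.41%), and chromosome III highest, with 13 of 64 (20.3%). Since X holds 45.1% of the nuclear tRNA genes, 48 of the 93 tRNA genes with such a summit were on it. For snoRNA genes the order was different, with 1 of 33 on X (3.03%), 18 of 71 on chromosome II (25.4%) and 14 of 55 on chromosome V (25.5%).

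Repeated sequence bears on the tRNA values. Of the 612 nuclear tRNA genes, 469 had an identical copy, and a pooled summit was found at 46.9% of genes without a copy and at 82.9% of those with 11 or more copies counting the gene itself. In the IDR-thresholded list the share was 9.79% (14 of 143) without a copy, 19.5% (16 of 82) with 2 to 5 copies, 15 of 100 with 6 to 10 and 16.7% (48 of 287) with 11 or more, so among genes with copies it did not rise with their number. Around the 83 IDR-thresholded tRNA summits, 31 windows of 50 bp to either side held only 32-base stretches found once in the genome, and in 17 under 50% of the stretches were unique. For snoRNA summits 58 of 62 windows were wholly unique, and for snRNA summits 12 of 14. Among tRNA summits with wholly unique windows, 31 of 194 were in the IDR-thresholded list (interval 11.5% to 21.8%), a smaller share than the 18.9% of all tRNA summits. For snoRNA summits it was 58 of 159 (36.5%) and for snRNA summits 12 of 35 (34.3%).

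By median, summits at snoRNA and snRNA genes sat further upstream than those at tRNA genes. In the IDR-thresholded list the median summit position was 2 bases upstream of the 5′ end for tRNA genes. It was 26.5 bases upstream for snoRNA genes and 26 bases upstream for snRNA genes. Summit positions also shifted between lists, since 133 of the 159 were matched in both replicates within 100 bp but 85 within 50 bp. For tRNA genes, 42 of 83 summits were upstream, 27 inside the gene and 14 past its 3′ end. For snoRNA genes 45 of 62 were upstream, 41 of them within 100 bases, and for snRNA genes 10 of 14 were upstream, all within 100 bases. Small RNA summits outside the IDR-thresholded list had medians of 17.5 bases downstream for tRNA, 16 bases upstream for snoRNA and 83 bases downstream for snRNA genes. Of the 159 lines, 156 had the same width, 330 bp.

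**Figure D4:**
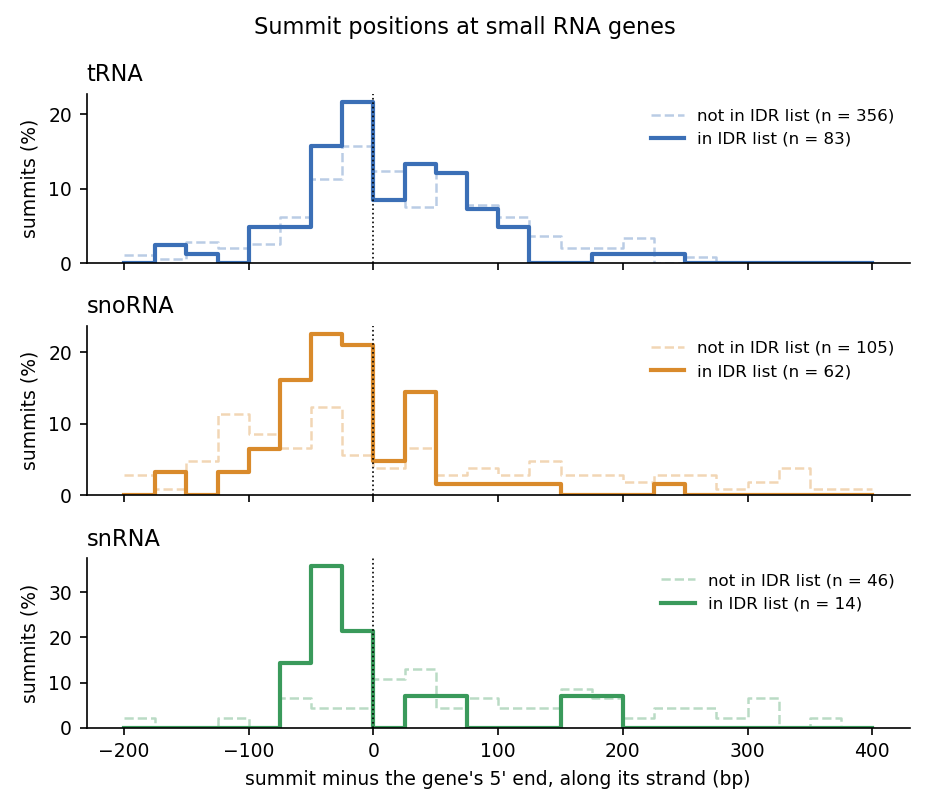
Distribution of summit positions relative to the annotated 5′ end of the nearest small RNA gene (x axis, bp along the gene's strand, bins of 25 bp) as a share of the summits of each class (y axis, %), in the IDR-thresholded list (solid) and outside it (dashed). The solid snoRNA and snRNA lines are highest between 0 and 75 bp upstream, while most tRNA summits lie from 100 bp upstream to 125 bp downstream.

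The SKN-1 consensus was scarce at these summits. It is A or T in 2 places, then T, then A or G, then TCAT, and it was searched on both strands with its centre within 50 bp of the summit. It was found at 5 of the 159 IDR-thresholded small RNA summits (3.14%, interval 1.35 to 7.15), at 216 of the 1619 other lines of that list (13.3%, interval 11.8 to 15.1) and at 6.63% of all pooled lines. Outside coding promoter windows the counts were 3 of 97 and 72 of 510. The 5 summits were at K07A1.t1, M7.15, T19B4.8, F14F7.t1 and Y7A9D.t2, and none of the 14 snRNA summits held it. With the centre allowed within 100 bp, the shares were 10.1% and 19.1%. The 2 sets of windows were not matched for base composition.

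Letters of small RNA genes were found near these summits more often, which for tRNA genes is largely given by the distance rule. The B box letters lay within 50 bp of 55 of the 159 IDR-thresholded small RNA summits (34.6%), of 30 of the 1619 other lines (1.85%) and of 4.01% of all pooled lines. By class they were near 35 of 83 tRNA summits, 19 of 62 snoRNA summits and 1 of 14 snRNA summits. The 2-part element was near 8 of the 159, 1 of the 1619 and 0.173% of all pooled lines. The 8 were at Y53F4B.47, sls-2.8, F59C6.15, sup-6, F25H2.15, F01D5.12, W04D2.7 and K02C4.7. The letters were chosen after the sequences under the highest summits had been seen. For snoRNA and snRNA genes these counts are therefore no independent comparison and describe these summits only. Inside the gene, 587 of 612 nuclear tRNA genes held a B box match, as did 92 of the 93 with an IDR-thresholded summit, so the match did not separate tRNA genes with a summit from those without.

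In each replicate, small RNA summits took a larger share of the highest lines than of the whole list. Each replicate list was put through the distance rule alone. In replicate 1, 495 of 22350 lines were small RNA summits, and 159 of these were among its 1778 highest lines (32.1%, against 7.96% of all its lines). In replicate 2, 646 of 30000 were, and 144 of these were among its 1778 highest lines (22.3%, against 5.93%). Of the 159 pooled summits in the IDR-thresholded list, 135 had a replicate 1 summit within 100 bp and 157 a replicate 2 summit, with 133 matched in both (83.6%). Among the other lines of that list the last share was 85.2%. Among the 1778 highest lines of both replicates there were 75 of the 159 (47.2%), and 47.7% of the other lines. By genes, 97 tRNA genes were near one of the highest lines of replicate 1, 84 in replicate 2 and 44 in both. For snoRNA genes the counts were 60, 58 and 42, and for snRNA genes 14, 12 and 10.

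Signal values were mostly higher in replicate 2, whose values need not be on the scale of replicate 1. For 125 of the 133 small RNA summits matched in both, the replicate 2 value was the higher, with a median ratio of 2.04. The same ratio had a median of 2.63 over the 1380 other matched lines. By class the median was 2.49 for tRNA, 1.99 for snoRNA and 1.83 for snRNA summits. The 8 summits that went the other way included W05B2.8.

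**Figure D5:**
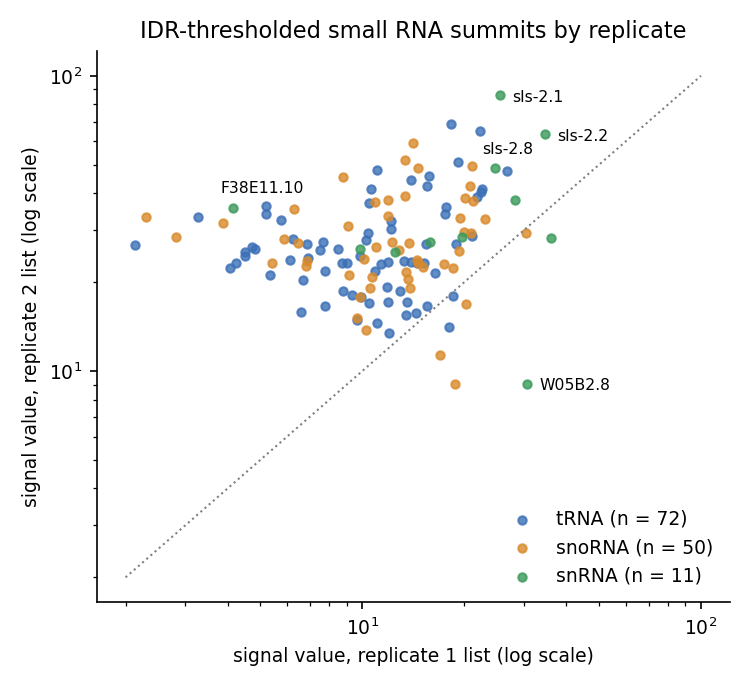
Signal value in the replicate 2 list (y axis, log scale) against that in the replicate 1 list (x axis, log scale) for the 133 IDR-thresholded small RNA summits matched within 100 bp in both lists, coloured by class; the dotted line marks equal values. Of the points, 125 lie above the line, the SL2 genes sls-2.1, sls-2.2 and sls-2.8 are high on both axes, and W05B2.8 and F38E11.10 lie far apart.

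Genes for the proteins that make and process these RNAs were looked at in the same list, by IDR-thresholded summits in their promoter windows. Of 46 matched genes of a list of 51, 11 had such a summit, against 7.76% of all coding genes. For RNA polymerase III and its factors it was 2 of 19, rpac-19, a subunit of RNA polymerases I and III, at 32.8 and snpc-3.4, a SNAP complex subunit, at 35.1. For tRNA processing it was 1 of 7, popl-1, a subunit of RNase P and MRP, at 45.0. For snoRNP and snRNP proteins it was 8 of 20. These were fib-1 (fibrillarin, the snoRNA-guided methyltransferase) at 47.3, nol-56 (a box C/D snoRNP protein) at 29.0, nola-3 (a box H/ACA snoRNP protein) at 51.7, the Sm protein genes snr-2 at 30.7, snr-4 at 64.5 and snr-6 at 43.5, and the splicing factors prp-8 at 62.1 and prp-19 at 53.9. The snr-4 summit is the one described above at C52E4.8. The summits of rpac-19 and snr-2 had no match in replicate 1, while the others named here were matched in both replicates.

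Just below the IDR limit stood K03B8.t1 (valine tRNA) at 26.7, M01E5.t1 at 26.7 and H08J11.t3 (glutamine tRNA) at 26.5. Among snoRNA genes the highest outside the list were C07A9.14 at 26.4, C16D9.11 at 26.4 and K11C4.6 at 25.1, and among snRNA genes the second summit of sls-2.8 at 26.1, F32B5.9 at 25.6 and C28A5.7 at 23.6. These values are next to the limit of 26.9, and the limit is not a boundary between bound and unbound genes. At the 200 bp limit of the rule, the summits just inside were those of sls-2.6 at 196 bp (4.25) and R08C7.19 at 200 bp (4.85). Those just outside were of K02B9.10 at 203 bp (7.58) and Y76G2B.1 at 204 bp (9.25), and none of the 4 was in the IDR-thresholded list.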

How the data were processed

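The data were peak lists of an SKN-1 ChIP-seq experiment in 2 biological replicates of 1 group, per the labels. Per the text deposited with the samples, the lists are narrowPeak files on ce11 and the replicate and pooled lists came from alignments of the ChIP samples and a control. The signal value is a score on the authors' scale, deposited without a unit. The deposited q-value is a −log10 value with a ceiling of 3.78 in the pooled list. The aligner, the peak caller, the IDR threshold and the read depth appear in none of the sources used here. Lists on ce10 were not used here.

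Summits were start plus offset plus 1, and genes came from Ensembl release 115 on WBcel235, with names and tRNA amino acids from RefSeq by WormBase identifier (all 1087 nuclear genes matched, and 607 of 612 nuclear tRNA genes had an amino acid). A summit was given to the nearest gene within 200 bp. Promoter windows ran 1000 bp upstream to 200 bp downstream, replicate summits were matched within 100 bp, and motif centres lay within 50 bp of a summit. Uniqueness is the share of 32-base stretches found once in the genome. Wilson 95% intervals were used. No test across samples was possible with 1 group. The genes named are the 12 highest IDR-thresholded summits per class, the 3 highest outside that list, those at the 200 bp limit, and listed protein genes with a promoter summit; others were chosen after their values were seen, which holds for the further SL2 genes, the genes printed as sequences and those holding a motif. The classes, lists and members were chosen with earlier results of these data known. Functions for distances, motifs and uniqueness were tested on simulated data. Python 3.11.15, numpy 2.4.6, pandas 2.3.3, scipy 1.17.1 and matplotlib 3.10.9 were used.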

Additional observations from a re-analysis of the deposited data

How the results depend on the processing

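The counts were recomputed at other distances, thresholds and windows. With the distance at 100 bp, at 500 bp or measured to the 5′ end alone, the pooled count was 566, 838 and 623 instead of 666 and the IDR-thresholded count 148, 174 and 156 instead of 159. Counting only summits inside the gene gave 204 pooled and 44 IDR-thresholded summits (27 tRNA, 15 snoRNA, 2 snRNA), of which the second is 21.6% of the first. The upper part of the IDR-thresholded list by signal value, cut at the middle, held 73 (31 tRNA, 30 snoRNA, 12 snRNA), and summits outside every coding promoter window numbered 97 (55 tRNA, 35 snoRNA, 7 snRNA). These settings take fewer lines by construction. Without a replicate, that is in the 1778 highest lines of the other, the count ranged from 144 to 159, with tRNA from 73 to 86, snoRNA from 57 to 59 and snRNA at 14. Matching replicates within 50 bp gave 85 summits in both lists instead of 133, and within 200 bp 151. The SKN-1 consensus was near 16 summits within 100 bp and 3 within 25 bp, instead of 5. In an alternative chosen after seeing the data, wholly unique windows left 388 pooled and 101 IDR-thresholded summits, with 31 tRNA summits instead of 83.

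No paired analysis was possible because there is 1 group, with 2 replicates. Read depth is unknown, and no list from animals without the fusion or from another factor was used here. Reads with several matches limit the tRNA, SL1 and other snRNA values. The IDR-thresholded list depends on signal value alone among pooled lines, so single genes near its limit can fall on either side. Base composition, chromatin state and expression of these genes were not tested.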
